A study of Mus musculus with 12 samples.

Results

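Aquaporins are membrane channels, and the 10 members of the family described here are *Aqp1*, *Aqp2*, *Aqp3*, *Aqp4*, *Aqp5*, *Aqp6*, *Aqp7*, *Aqp8*, *Aqp9* and *Aqp11*. The family was chosen with earlier results of these data known. Its members were taken by gene symbol, as the entries of the array table that carry that single symbol. Each had 1 entry, so the 10 aquaporins are 10 of 19938 genes with a single symbol. The level of each was measured along the cochlea, in its base, middle and apical piece, in wild-type C57BL/6 mice at postnatal day 0 (P0) and postnatal day 8 (P8), with no treatment, on 12 Affymetrix Mouse Gene 1.0 ST arrays. Age and region make 6 groups of 2 arrays, 1 from a first and 1 from a second dissection set, and each array was hybridized with RNA pooled from many cochleae. The 3 pieces of a given age and set were cut from the same temporal bones, after removal of the otic capsule, and hold the lateral wall and the spiral limbus beside the organ of Corti. A level is therefore that of a piece of tissue with many cell types, and fewer cells of a type cannot be told apart from less RNA per cell.

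Water follows salt across epithelia, and aquaporins set how easily it passes a membrane. The cochlea holds a fluid rich in potassium, endolymph, beside one rich in sodium, perilymph, and both have to keep their volume and composition. *Aqp1*, *Aqp2*, *Aqp4* and *Aqp5* are classical water channels, *Aqp3*, *Aqp7* and *Aqp9* also pass glycerol, *Aqp8* passes water and other small molecules, *Aqp6* is an intracellular channel that passes anions, and *Aqp11* is an intracellular and divergent member. In the inner ear *Aqp4* is known from supporting cells of the organ of Corti, *Aqp5* from outer sulcus cells of the lateral wall, and *Aqp1* from fibrocytes of the spiral ligament.

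All values are log2 signals from robust multiarray averaging (RMA), and a difference of 1 on this scale is a 2-fold change. The 12 arrays had medians between 7.21 and 7.29 over all entries. Of the 10 aquaporins, 8 exceeded a mean of 6 in some group and were tested together with all other genes above that level, 16306 in all. Over these genes the median SD within a group was 0.175. A gene passed a test at a limma p adjusted over all tested genes under 0.05, with a fold of at least 1.5 between apex and base or of at least 2 between the ages. Signals of different genes come from different probes and are not compared with each other.

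At P8 *Aqp4* was higher than at P0, and *Aqp4* was the only one of the 8 tested aquaporins that passed this test over the mean of the 3 regions. Of all tested genes 3.20% passed it. Of the others, *Aqp1* was lower at P8 by 0.53, and *Aqp5* was lower at P8 in the base and higher in the apex, both without passing. The apex-base difference at P8 was above 0 for 7 of the 8 aquaporins, and none passed unless arrays of the same dissection set were matched, when *Aqp4* and *Aqp5* did.

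**Figure D1:**
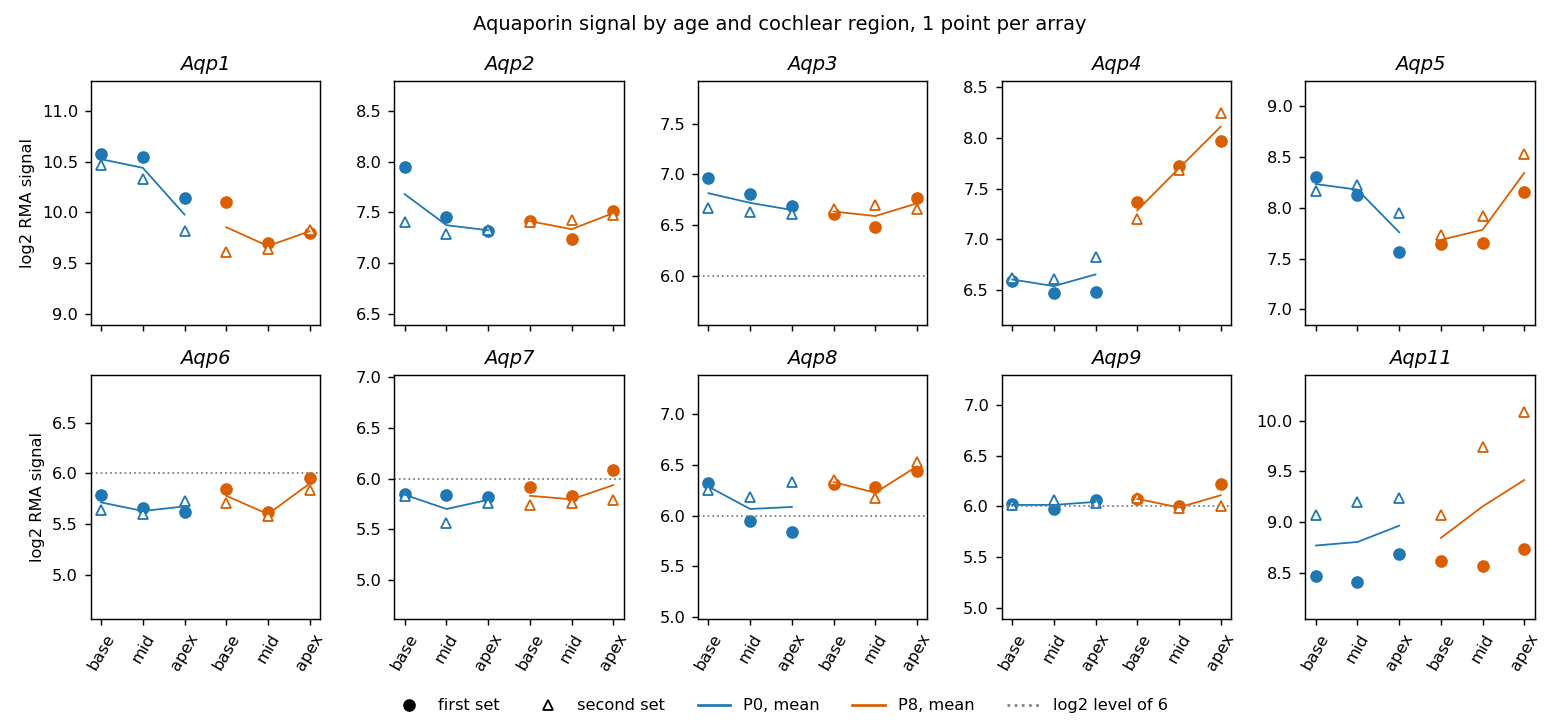
Log2 RMA signal of each of the 10 aquaporins by region and age; each point is 1 array (filled circles, first set; open triangles, second set; blue, P0; orange, P8), lines join the group means of 1 age, the dotted line is the level of 6, and all panels span the same width on the log2 axis. *Aqp4* lay between 6.47 and 6.83 on the P0 arrays and between 7.20 and 8.25 on the P8 arrays, and *Aqp6* stayed under 6 on every array.

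*Aqp4*, the main water channel of glia and of several supporting epithelia, read 6.59 and 6.62 in the P0 base (first and second set), 6.47 and 6.61 in the P0 middle, and 6.48 and 6.83 in the P0 apex. At P8 it read 7.37 and 7.20 in the base, 7.72 and 7.68 in the middle, and 7.97 and 8.25 in the apex. Every P8 array was higher than every P0 array, a separation in this direction that 8.08% of all tested genes showed. Within P8 the groups followed one another from base to middle to apex with no overlap, whereas the 3 P0 groups overlapped.

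The rise of *Aqp4* from P0 to P8 was 1.10 ± 0.09 (SE) on the log2 scale over the mean of the 3 regions, a 2.14-fold change with a limma adjusted p of 1.07e-04 and a 95% confidence interval of 0.88 to 1.31. The fit counts the 3 pieces cut from the same pool of bones as separate samples, so this p can be too small. Averaged over the regions, *Aqp4* rose by 1.17 in the first set and by 1.02 in the second. In the apex it rose by 1.45 ± 0.16, or 2.74-fold (limma adjusted p = 0.00191). In the middle it rose by 1.16 ± 0.16, or 2.24-fold (limma adjusted p = 0.00582). In the base the difference was 0.68 ± 0.16, 1.6-fold, with a limma adjusted p of 0.0601, and this did not pass. With arrays of the same dissection set matched, its limma adjusted p was 0.00729, and the fold was still short of 2. *Aqp4* was the only aquaporin past the test in the middle, where 2.35% of all tested genes passed, and in the apex, where 2.64% did, and no aquaporin passed in the base, where 2.19% did. The call in the middle rested on the first-set P0 middle array, without which the adjusted p was 0.0644, whereas the calls over the 3 regions and in the apex held with each of the 12 arrays left out in turn. Within the first set the P8 minus P0 difference of *Aqp4* was 0.78, 1.25 and 1.48 from base to apex, and within the second set it was 0.58, 1.07 and 1.42, so both sets gave the same order of regions.

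Between apex and base, *Aqp4* differed by 0.05 ± 0.16 at P0 (limma adjusted p = 1), with a confidence interval of -0.32 to 0.42. At P8 the apex was higher by 0.82 ± 0.16, 1.77-fold, with a limma adjusted p of 0.168. With a replicate block for the dissection set, which compares arrays of the same set, the adjusted p was 0.0138 and *Aqp4* passed. The difference was 0.60 in the first set and 1.05 in the second. Both apex arrays were above both base arrays, as they were for 15.0% of all tested genes. The call with the block was lost when the second-set P8 base array or the second-set P8 apex array was left out (adjusted p up to 0.182), and it held without any other array. The change of the apex-base difference of *Aqp4* from P0 to P8 was 0.78 ± 0.23 and did not pass (limma adjusted p = 1, and 0.264 with the block).

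*Aqp5*, a channel of the apical membrane of secretory and other epithelia, had its highest and lowest arrays both in the apex, at different ages. It read 8.30 and 8.17 in the P0 base, 8.13 and 8.23 in the P0 middle and 7.57 and 7.95 in the P0 apex. At P8 it read 7.64 and 7.73 in the base, 7.65 and 7.92 in the middle and 8.16 and 8.53 in the apex. At P0 the apex arrays thus lay below all base and middle arrays, and at P8 they lay above all of them. In order of group means the P8 apex, P0 base and P0 middle overlapped with their neighbours and so did the P8 middle, P0 apex and P8 base, with a gap only between the P0 middle and the P8 middle.

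The apex-base difference of *Aqp5* was -0.48 ± 0.18 at P0 (limma adjusted p = 1, and 0.227 with the replicate block). At P8 it was 0.65 ± 0.18, 1.57-fold, with a limma adjusted p of 0.512. With the replicate block *Aqp5* passed at P8, with an adjusted p of 0.0415, but this call held in only 4 of the 12 fits that left out 1 array, those without a P0 base or a P0 apex array, with adjusted p from 0.036 to 0.283 over the 12. The difference had the same sign in both sets at each age, -0.73 and -0.23 at P0 and 0.51 and 0.79 at P8. Of all tested genes, 4.96% went from below 0 at P0 to above 0 at P8 in both sets.

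The change of the *Aqp5* difference from P0 to P8 was 1.13 ± 0.26 on the log2 scale, with a confidence interval of 0.54 to 1.72. It did not pass (limma adjusted p = 1, and 0.0627 with the replicate block), and no tested gene passed this comparison without a block (0% of 16306). With the pool of each age and set as a block, *Aqp5* was the 1 aquaporin that passed (adjusted p = 0.00965), beside 0.926% of all tested genes, and with the dissection set as block no aquaporin was among the 0.178% that did. Between the ages *Aqp5* was lower at P8 in the base by 0.55 ± 0.18 (limma adjusted p = 0.187) and in the middle by 0.39 ± 0.18 (0.361), and higher in the apex by 0.59 ± 0.18 (0.132). None of these differences passed. Over the mean of the 3 regions they left -0.12 ± 0.11.

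Skeletal muscle markers were high on 1 of the P0 apex arrays. Of 11 listed, 8 were above the level, and *Myh1*, *Myh3* and *Myh4*, the genes of fast and embryonic myosins, were under it in every group. The summed signal of the 11 was 2868 on the first-set P0 apex array, 1128 on the second-set P0 apex array and at most 1459 on any other. Of the 8, 7 were higher in the P0 apex than in the P0 base, with a median of 0.50, and 2 were higher at P8 than at P0 in the apex, with a median of -0.52, and none passed in either comparison. Without the first-set P0 apex array, the apex-base difference of *Aqp5* at P0 was -0.29 in place of -0.48, its change from P0 to P8 was 0.94 and its P8 over P0 difference in the apex was 0.40. The rise of *Aqp4* in the apex was then 1.28 and passed. The part of muscle RNA in these differences was not tested.

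**Figure D2:**
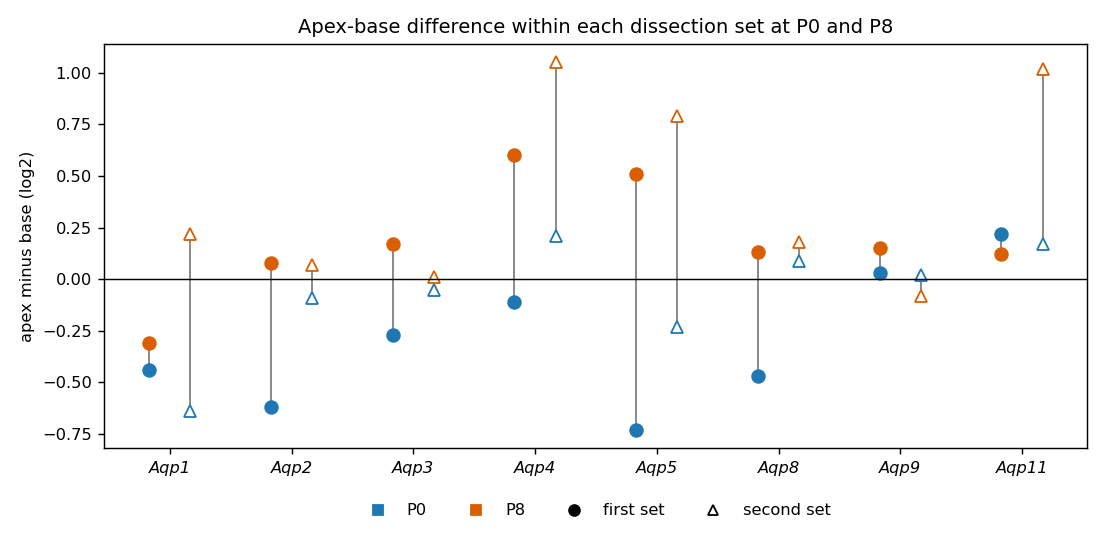
Apex minus base on the log2 scale for the 8 tested aquaporins within the first (filled circles) and the second (open triangles) dissection set, at P0 (blue) and P8 (orange), with a line joining the ages of 1 set. *Aqp5* lay below 0 at P0 and above 0 at P8 in both sets, and *Aqp4* lay at 0.60 and 1.05 at P8.

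*Aqp1*, the water channel of red blood cells, endothelium and many fluid-transporting tissues, was lower at P8. At P0 it read 10.58 and 10.47 in the base, 10.55 and 10.33 in the middle and 10.14 and 9.82 in the apex. At P8 it read 10.10 and 9.61 in the base, 9.70 and 9.64 in the middle and 9.80 and 9.83 in the apex. The base and middle of P0 stood above all other groups, and the P0 apex overlapped with the P8 base.

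Over the mean of the 3 regions *Aqp1* was lower at P8 by 0.53 on the log2 scale (-0.53 ± 0.11), 1.45-fold, with a limma adjusted p of 0.00939. This is under the p threshold but short of the 2-fold threshold, so it is not counted as passed, and 18.7% of all tested genes had an adjusted p under 0.05 in this comparison at any fold. As for *Aqp4*, the fit counts the 3 pieces of a pool as separate samples. The adjusted p stayed under 0.05 with each of the 12 arrays left out in turn, with 0.0328 as the highest. By region the P8 minus P0 difference was -0.66 ± 0.19 at the basal end (limma adjusted p = 0.105), -0.77 ± 0.19 in the middle (0.0603) and -0.17 ± 0.19 at the apical end (0.707). *Aqp1* was lower at P8 in both sets in base and middle, and in the apex it differed by -0.34 in the first set and by 0.00 in the second. At P0 its apex-base difference was -0.54 ± 0.19 (limma adjusted p = 1, and 0.155 with the replicate block), with -0.44 and -0.64 in the sets. At P8 the difference was -0.05 ± 0.19, and the sets went opposite ways, -0.31 and 0.22.

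Markers of the cells in which *Aqp1* is well known were mostly higher at P8. Of 10 endothelial markers, 9 were higher at P8 over the mean of the regions, with a median difference of 0.18, and none passed. In the apex alone 5 of the 10 were higher at P8, with a median of -0.00. Their summed signal ran from 4693 to 6174 over the P0 arrays and from 5753 to 6750 over the P8 arrays. Of 14 red blood cell genes listed, 5 were found under a single symbol and 4 were above the level. These 4 were all higher at P8, with a median difference of 0.19, and none passed. Of 9 markers of spiral ligament fibrocytes on the array, 6 were higher at P8 and 1 passed, against 2.06% of all tested genes in this direction. It was *Otos*, which encodes the fibrocyte protein otospiralin (2.63 ± 0.22, limma adjusted p = 9.18e-05). The part of these cell types in the *Aqp1* difference was not tested.

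The sequence around the start of transcription is shown for *Aqp1* and *Aqp5*, the gene with a lower level at P8 and the gene whose apex-base difference had opposite signs at the ages. The RefSeq table with coordinates on GRCm38.p6 held windows for 9 of the 10 aquaporins, each from 250 bases before to 50 bases after an annotated start. Capitals mark GGGCGG, the GC box, or its reverse complement CCGCCC. The *Aqp1* window is chr6:55336049-55336348 on the plus strand, and the *Aqp5* window is chr15:99590778-99591077 on the plus strand.
Aqp1: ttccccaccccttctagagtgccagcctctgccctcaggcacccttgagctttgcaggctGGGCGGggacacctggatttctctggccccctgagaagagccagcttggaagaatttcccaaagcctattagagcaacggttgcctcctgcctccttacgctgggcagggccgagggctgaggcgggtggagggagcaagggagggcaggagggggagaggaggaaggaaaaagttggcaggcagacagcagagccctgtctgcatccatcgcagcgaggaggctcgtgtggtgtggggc
Aqp5: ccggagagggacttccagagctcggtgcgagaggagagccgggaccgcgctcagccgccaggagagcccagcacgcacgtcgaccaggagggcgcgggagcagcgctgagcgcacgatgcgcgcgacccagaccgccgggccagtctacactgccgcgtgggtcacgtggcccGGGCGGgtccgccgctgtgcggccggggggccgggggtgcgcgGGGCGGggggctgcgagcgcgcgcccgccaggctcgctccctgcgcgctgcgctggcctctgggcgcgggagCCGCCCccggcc

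The *Aqp5* window had a GC content of 79.7%, held 46 CG dinucleotides and held the GC box 3 times. Of 32851 windows of this length, 1.18% had a GC content at least as high, and the median window had 52.7% and 7 CG dinucleotides. The *Aqp1* window had 62.7% GC, 8 CG dinucleotides and 1 GC box. The box was searched on both strands and occurred in 35.7% of all windows. Neither window held TATAAA, the TATA box (13.6% of all windows), or CCAAT (37.4%), both also searched on both strands. These counts describe the letters of the windows, and no measurement in this series bears on whether a factor binds there. *Aqp5* lies between *Aqp2* and *Aqp6* on chromosome 15 with no other protein-coding gene between them in the RefSeq annotation, and *Aqp7* and *Aqp3* are likewise neighbours on chromosome 4.

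*Aqp2*, the vasopressin-regulated channel of the kidney collecting duct, varied little but for 1 array. It read 7.95 and 7.41 in the P0 base, 7.46 and 7.29 in the P0 middle and 7.32 and 7.33 in the P0 apex. At P8 its 6 arrays lay between 7.24 and 7.51. The first-set P0 base array alone stood apart, and without it the other 11 arrays lay within the range of 7.24 to 7.51. The apex-base difference of *Aqp2* was -0.36 ± 0.18 at P0 (limma adjusted p = 1), made up of -0.62 in the first set and -0.09 in the second, and 0.07 ± 0.18 at P8. Its P8 over P0 difference was -0.04 ± 0.10. *Aqp6*, the other neighbour, was under the level of 6 on all 12 arrays, between 5.58 and 5.96, and was not tested.

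Of 11 genes of vasopressin and cyclic AMP control above the level, 5 were higher at P8 over the mean of the regions, the median difference was -0.02, and none passed in any of the comparisons. *Avpr1a*, a vasopressin receptor, differed by 0.28 ± 0.14 (limma adjusted p = 0.232), and *Adcy6*, an adenylate cyclase, by -0.17 ± 0.09 (0.214).

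*Aqp11* was the member whose level depended most on the dissection set. In the first set it read 8.47, 8.41 and 8.69 in base, middle and apex at P0 and 8.62, 8.57 and 8.74 at P8. In the second set it read 9.07, 9.20 and 9.24 at P0 and 9.07, 9.74 and 10.09 at P8. The second set was higher in 6 of 6 groups, by 0.44 to 1.35 and by 0.82 on average, and 5.14% of all tested genes had a mean difference between the sets at least as large. For the other 7 tested aquaporins this mean difference was between -0.19 and 0.18.

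Because of this spread the groups of *Aqp11* overlapped throughout and its standard errors were the widest of the family. The P8 over P0 difference was 0.29 ± 0.30 over the mean of the regions (limma adjusted p = 0.562), with a confidence interval of -0.40 to 0.98. With the replicate block its standard error was 0.12 and the adjusted p was 0.0671. The apex-base difference was 0.20 ± 0.53 at P0 and 0.57 ± 0.53 at P8, the latter made up of 0.12 in the first set and 1.02 in the second. With the replicate block the P8 difference was 0.57 ± 0.20 and did not pass (limma adjusted p = 0.262, and 0.0762 with the pool of each age and set as block). A gradient at P8 of the size seen for *Aqp4* lies within the confidence interval of *Aqp11*, -0.63 to 1.77 without a block and 0.12 to 1.02 with the replicate block. The part of the pools, the dissection or the array runs in the set difference was not tested.

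**Figure D3:**
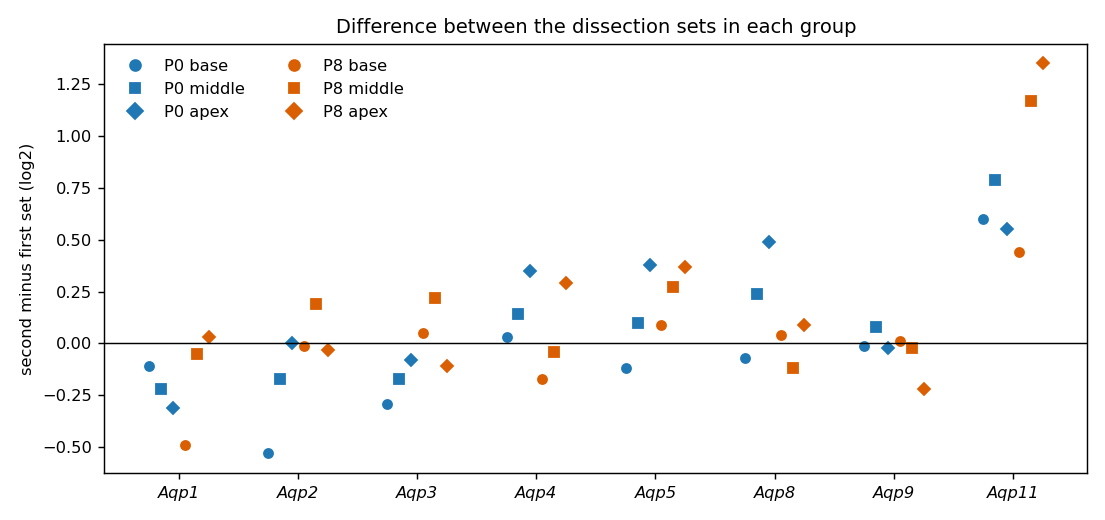
Second minus first dissection set on the log2 scale for each tested aquaporin, 1 point for each of the 6 groups (blue for P0, orange for P8; circles for the base, squares for the middle and diamonds for the apex). The 6 points of *Aqp11* lay between 0.44 and 1.35, and the means of the other aquaporins lay between -0.19 and 0.18.

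The glycerol channels showed small differences. *Aqp3*, known from epidermis and the kidney collecting duct, lay between 6.48 and 6.96 and was highest on the first-set P0 base array, the array on which *Aqp1* and *Aqp2* were also highest. Its P8 over P0 difference was -0.08 ± 0.09 (limma adjusted p = 0.561). *Aqp7*, the glycerol channel of fat cells, lay between 5.56 and 6.08, did not reach the level as a mean of any group and was not tested. *Aqp9*, the glycerol channel of liver, lay between 5.97 and 6.22, the narrowest range of the 10, and its P8 over P0 difference was 0.03 ± 0.07 (limma adjusted p = 0.794).

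Of 11 genes of glycerol and lipid droplet handling above the level, 8 were higher at P8 with a median difference of 0.35, and 2 passed as higher, against 2.06% of all tested genes in this direction. *Mgll*, the lipase that splits monoacylglycerol into glycerol and fatty acid, rose by 2.08 ± 0.12 (limma adjusted p = 1.49e-05). *Gpd2*, the mitochondrial glycerol-3-phosphate dehydrogenase, rose by 1.22 ± 0.15 (limma adjusted p = 8.34e-04). Of 8 fat cell markers on the array, 5 were above the level, and *Adipoq*, *Fabp4* and *Lep* were under it in every group. Of the 5, 4 were higher at P8 over the mean of the regions, with a median of 0.04, and none passed.

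*Aqp8*, a channel of gut and exocrine glands that also passes ammonia, read 6.32 and 6.25 in the P0 base, 5.95 and 6.18 in the P0 middle and 5.84 and 6.33 in the P0 apex. It read 6.31 and 6.35 in the P8 base, 6.28 and 6.17 in the P8 middle and 6.44 and 6.53 in the P8 apex. The P8 apex arrays were its highest, by a margin smaller than the spread of the P0 apex arrays. Its P8 over P0 difference in the apex was 0.40 ± 0.17 (limma adjusted p = 0.286), and over the mean of the regions it was 0.20 ± 0.10 (0.221).

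**Figure D4:**
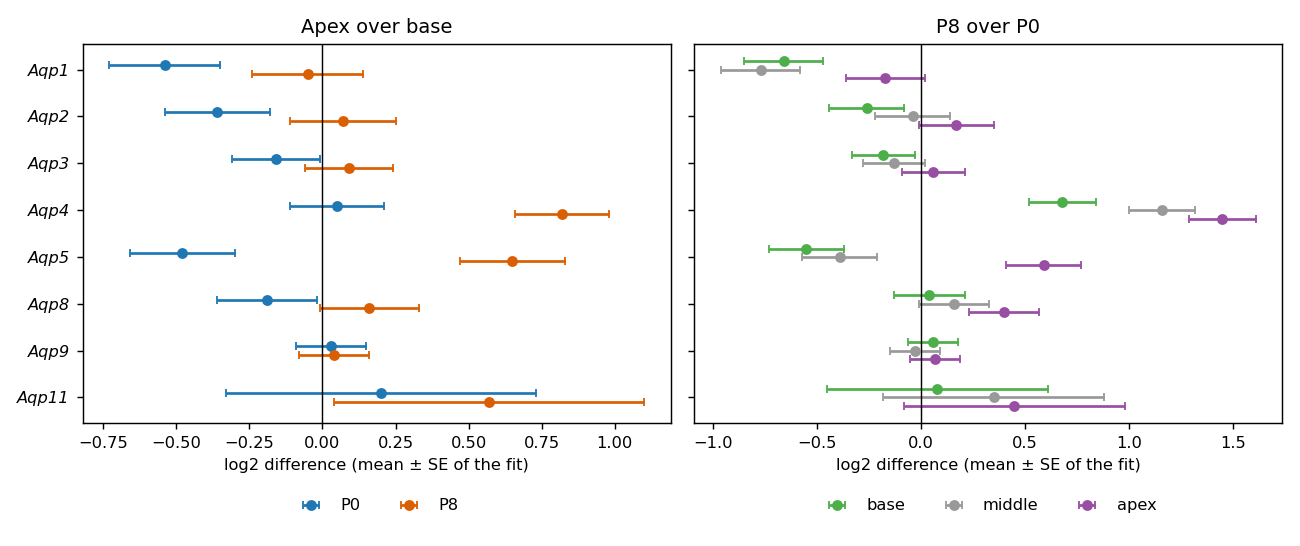
Log2 differences of the 8 tested aquaporins with the standard error of the limma fit, apex over base at P0 and P8 (left) and P8 over P0 in base, middle and apex (right). The *Aqp4* differences between the ages ran from 0.68 for the base to 1.45 for the apex, and those of *Aqp9* lay between -0.03 and 0.07.

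Read over the family, the aquaporins did not move one way between the ages. Of the 8 tested, 4 were higher at P8 over the mean of the regions, with a median difference of -0.01 against -0.00 over all tested genes. In the apex 7 of 8 were higher at P8, with a median of 0.28 against -0.01 over all genes. For apex over base, 3 of 8 were higher in the apex at P0 (median -0.18 against 0.03 over all genes) and 7 of 8 at P8 (0.12 against 0.00). No aquaporin passed at P0, where 0.00613% of all tested genes did, or at P8, where 0.196% did. With the replicate block no aquaporin passed at P0 (0.675% of all genes) and 2 did at P8 (1.58%). The change of the apex-base difference was above 0 for all 8, from 0.01 for *Aqp9* to 1.13 for *Aqp5*, with a median of 0.40, while 45.4% of all tested genes were above 0 and the median gene was at -0.03. The 8 values are not independent, since all were measured on the same 8 base and apex arrays. The highest of the 12 arrays was a P8 apex array for *Aqp4*, *Aqp5*, *Aqp6*, *Aqp7*, *Aqp8*, *Aqp9* and *Aqp11*. It was the first-set array for *Aqp6*, *Aqp7* and *Aqp9* and the second-set array for the others. Of these, *Aqp6* and *Aqp7* were not above the level in any group, and *Aqp9* spanned only 0.25. The share of all genes with their highest value on a P8 apex array was not counted. Among relatives outside the 10, *Mip*, the channel of lens fibres, and *Aqp12*, a channel of pancreatic acinar cells, differed between the ages by 0.21 ± 0.12 and 0.20 ± 0.12, and neither passed.

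Ion transporters that work beside the aquaporins were higher at P8. Of 13 cochlear ion transport genes above the level, 13 were higher at P8 over the mean of the regions, with a median difference of 0.81, and 4 passed, against 2.06% of all tested genes in this direction. *Kcnj16* and *Kcnj10*, potassium channels of the lateral wall, rose by 2.38 ± 0.15 and 1.89 ± 0.35 (limma adjusted p = 2.12e-05 and 0.00641). *Atp1b2*, a subunit of the sodium pump, rose by 1.56 ± 0.15, and *Kcnq1*, the potassium channel through which strial marginal cells secrete, by 1.09 ± 0.13. None of the 13 passed between apex and base at either age without a block, and with the replicate block *Kcnj16* (-0.81) and *Kcne1* (-0.68), the partner subunit of *Kcnq1*, passed as lower in the P0 apex (limma adjusted p = 0.0304 for each, and 1 without the block). Of 14 genes of cell volume regulation, 13 were higher at P8, with a median of 0.35, and 1 passed, the calcium-activated chloride channel gene *Ano1* (1.38 ± 0.10, limma adjusted p = 4.79e-05). *Trpv4*, the osmosensitive cation channel, differed by 0.45 ± 0.09 (limma adjusted p = 0.01), short of the 2-fold threshold.

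In glia *Aqp4* is anchored in the membrane by the dystrophin complex. Of 9 of its genes listed, 8 were on the array and above the level. Of these, 5 were higher at P8 with a median difference of 0.03, and none passed between the ages, between apex and base, or in the change of that difference. *Utrn*, the dystrophin relative utrophin, differed by 0.43 ± 0.17 (limma adjusted p = 0.112), *Sntb2*, a syntrophin, by 0.36 ± 0.20 (0.27), and *Agrn*, the basement membrane protein agrin, by -0.38 ± 0.09 (0.0154). With the replicate block the adjusted p was 0.0039 for *Utrn*, 0.0119 for *Sntb2* and 0.00181 for *Agrn*, and all 3 were short of the 2-fold threshold.

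Markers of the cells in which *Aqp4* and *Aqp5* are known moved between the groups as well. Of 10 outer sulcus and spiral prominence markers, 8 were higher at P8 over the mean of the regions, with a median of 0.97, and 5 passed as higher, against 2.06% of all tested genes in this direction. They were *Kcnj16* and *Ano1*, *Bmp6*, a bone morphogenetic protein (1.98 ± 0.26), *P2rx2*, an ATP-gated channel (1.88 ± 0.19) and *Anxa1*, annexin A1 (1.69 ± 0.35). The summed signal of the 10 was 6874 to 8203 over the P0 arrays and 11433 to 14098 over the P8 arrays. Between apex and base, 3 of the 10 were higher in the apex at P0 (median -0.06) and 7 at P8 (0.15). The change of that difference was above 0 for all 10 (median 0.32), against 45.4% of all tested genes. None passed in these comparisons. With the replicate block 1 passed as lower in the P0 apex and 1 as higher in the P8 apex, against 0.675% of all tested genes in either direction and 1.13% as higher. Of 14 supporting cell markers, 11 were higher in the apex than in the base at P8, with a median of 0.81, and 4 passed (7 with the replicate block), against 0.178% and 1.13% of all tested genes in this direction. *Tecta*, a tectorial membrane protein gene, was higher in the P8 apex by 2.57 ± 0.15 (limma adjusted p = 7.68e-04), and *Jag1*, a Notch ligand, by 1.21 ± 0.14 (0.0198). The summed supporting cell signal was 17800 to 19542 in the P8 base, 23068 to 26285 in the P8 middle and 26488 to 30854 in the P8 apex. In the P0 base it was 16850 to 20493, in the P0 middle 20614 to 26004 and in the P0 apex 22101 to 25447. At P0 11 of the 14 were likewise higher in the apex than in the base, with a median of 0.35, and none passed. With the replicate block 3 passed at P0 as higher and 1 as lower, against 0.675% of all tested genes in either direction. From P0 to P8, over the mean of the regions, 6 of the 14 supporting cell markers were higher, with a median of -0.16. Of these 14, 1 passed as higher, *Gjb6*, a gap junction connexin (1.43 ± 0.12), and 2 passed as lower, *Tecta* (-2.19 ± 0.09) and *Prox1*, a transcription factor of supporting cells (-1.38 ± 0.10). In this comparison 3.20% of all tested genes passed in either direction and 2.06% as higher. The part of these cell types in the *Aqp4* and *Aqp5* differences was not tested. Markers of glandular epithelium, a known site of *Aqp5* elsewhere in the body, had a median apex-base difference of 0.01 at both ages over the 10 above the level, and none passed, and *Scgb1a1* and *Cftr* were under the level. Of 7 Schwann cell markers above the level, all were higher in the P8 apex than in the P8 base, with a median of 0.26, and none passed. Over the mean of the regions 6 of the 7 were higher at P8 than at P0, with a median of 0.58. Between the ages 2 passed as higher, against 2.06% of all tested genes in this direction.

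The genes most like *Aqp4* over the 12 arrays were *Fam83f* (Pearson r = 0.984), *Pnpla3*, a lipase relative (0.976), and *Epyc*, the small proteoglycan epiphycan (0.968). Their group means had the same order at P8, rising from base to apex, from 7.01 to 7.33 for *Fam83f*, from 8.34 to 8.83 for *Pnpla3* and from 12.15 to 12.44 for *Epyc*. The genes most like *Aqp5* were *Hal*, histidine ammonia-lyase (0.894), *Zfp764*, a zinc finger protein gene (0.883), and *Fscn2*, a fascin of hair cell stereocilia (0.836). Of these, *Hal* was near or under the level of 6 in every group, 5.83 to 6.19. These are the highest of all correlations with each gene over arrays that share pools, ages and regions, and they are given as a description only.

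**Figure D5:**
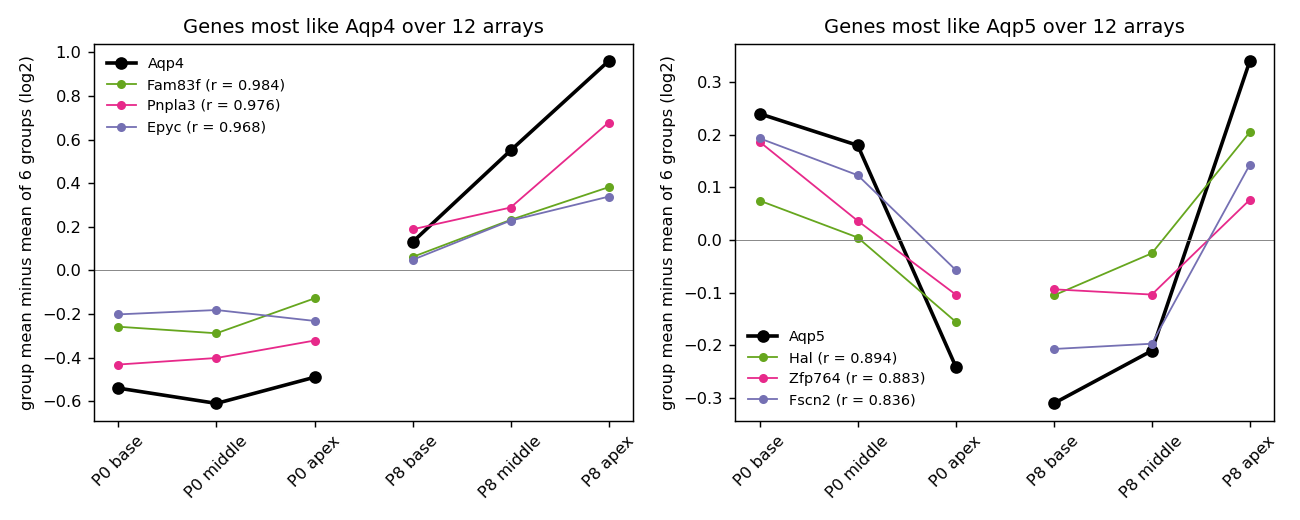
Group means on the log2 scale, each gene centred on its mean over the 6 groups, for *Aqp4* (left) and *Aqp5* (right) and the 3 tested genes with the highest Pearson r with each over the 12 arrays; lines join the regions of 1 age. The *Aqp4* lines rose from base to apex at P8, and *Aqp5* and its likest genes were lower in the apex than in the base at P0 and higher at P8.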

How the data were processed

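The authors extracted signals from the scanned arrays with the Affymetrix Command Console Software and summarised them by RMA, whose version is not given in the sources used here; the values deposited by the authors are log2 signals, and whether both dissection sets went through 1 run is not stated. RMA corrects background, normalizes between arrays and combines probes. Of 35556 entries, 21789 had 1 gene symbol in the platform annotation, 1621 had several and 12146 none, and only the first were used. A gene with several entries was taken at the entry of highest mean signal. The 16306 genes with a mean above 6 in at least 1 group were tested, of which 16253 matched RefSeq by Entrez identifier.

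Differences were fitted with limma 3.58.1 in R 4.3.3 (lmFit and eBayes, 6 group means, 6 residual and 2.78 prior degrees of freedom, Benjamini-Hochberg adjustment over all tested genes), without a block because the methods name an unpaired test. The fit was tested on simulated data with changes placed in the P8 apex only. Only apex-base comparisons were read there, and no effect particular to the pool of 1 age and set was simulated. The tests between the ages were thus not checked in this way. With 2 arrays a group, p-values measure the spread between arrays of pooled RNA, and the number of arrays limits the precision. Each age had 2 pools of bones, and the fit counts the 3 pieces of a pool as separate samples. Adjusted p between the ages can therefore be too small. The paper's dissection sets pair the arrays: deviations of same-set arrays correlated at 0.544 to 0.916 over 15 pairs of groups. A value with the set as block is therefore given where it changes a call, and beside some differences that did not pass. Other alternatives were array centring, quantile normalization, other filters, robust eBayes, the methods' test and leaving out arrays, and the block with arrays left out was added after seeing the data. Tables and figures were made in Python 3.11.15 with pandas 2.3.3, numpy 2.4.6 and, for plots, matplotlib 3.10.9.

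The members and the gene lists were chosen with earlier results of these data known. All 10 aquaporins are named. Of each list up to 5 members could be named, those past a test first and then by the size of the P8 over P0 difference, and for *Aqp4* and *Aqp5* the 3 genes with the highest correlation. List members named as under the level and *Mip* and *Aqp12* complete these lists. Markers of neutrophils, macrophages, skeletal muscle and strial marginal cells were also listed. Over the mean of the regions at P8 against P0, none of the neutrophil, macrophage or muscle markers passed. Of 9 strial marginal markers 2 passed as higher, against 2.06% of all tested genes in this direction. All 10 macrophage markers were higher at P8, with a median of 0.46. In the base alone 1 of them passed, *Csf1r* (1.01 ± 0.23, limma adjusted p = 0.0489), where 2.19% of all tested genes did. With the replicate block 2 passed there, among 554 of 16306 tested genes. The muscle markers were high on 1 P0 apex array, given beside the *Aqp5* values.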

Additional observations from a re-analysis of the deposited data

Results flagged for a closer look

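*Aqp5*, *Aqp2* and *Aqp3* had an apex-base difference below 0 at P0 and above 0 at P8 in both dissection sets. So did 4.96% of all tested genes. In the second set the *Aqp3* differences were only -0.05 at P0 and 0.01 at P8, beside a median SD within a group of 0.175 over all tested genes. The first-set P0 base array was the highest of the 12 for *Aqp2* and for *Aqp3*. For *Aqp5* the change from P0 to P8 was 1.13 on the log2 scale, and a test of the change itself gave a limma adjusted p of 1 without a block, 0.0627 with the dissection set as block and 0.00965 with the pool of each age and set as block. For *Aqp2* the change was 0.43, of which the first set gave 0.71 and the second 0.15, with a limma adjusted p of 1. For *Aqp3* the change was 0.25, with 0.43 in the first set and 0.06 in the second, and a limma adjusted p of 1. Groups of 2 arrays are too small for a search for single outlying arrays.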

How the results depend on the processing

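The counts of aquaporins past the test over the mean of the 3 regions (*Aqp4*), in the base (0) and at P0 (0) were the same under every alternative run. The P8 apex-base count, 0, became 2 with the dissection set as replicate block and with the pool as block, and 1 with the methods' t-test unadjusted (*Aqp4*). The paper lists both *Aqp4* and *Aqp5* among its genes with no gradient at P0 and a rise toward the apex at P8. Why *Aqp5* did not pass the methods' t-test here was not tested. Leaving out arrays, the P8 apex-base count was 0 throughout without the block and 0 to 2 with the block. The counts in the middle and the apex, 1 each, became 0 with the methods' t-test after Benjamini-Hochberg adjustment (*Aqp4* 0.427 and 0.459), and the middle count was 0 to 1 with arrays left out. The count for the change of the difference became 1 with the pool as block. The block changed no other call of an aquaporin. Over all genes it raised the calls between apex and base from 1 to 110 at P0 and from 32 to 257 at P8, from 0 to 29 for the change, and between the ages from 357 to 554 in the base, 383 to 600 in the middle and 431 to 649 in the apex. The methods' test after adjustment called 0 genes within single regions. The pool as block gave 231, 458 and 151 calls at P0, at P8 and for the change.

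Signs turned only for differences that did not pass. With each array centred on its median, the P0 apex-base differences of *Aqp4* and *Aqp9* were -0.01 and -0.03, and with quantile normalization the P8 over P0 difference of *Aqp9* was -0.02. With 1 array left out, without and with the block, the P0 apex-base difference ran from -0.13 to 0.22 and -0.10 to 0.20 for *Aqp4*, from -0.44 to 0.05 and -0.42 to 0.04 for *Aqp8*, and from -0.11 to 0.50 for *Aqp11*. At P8 it ran from -0.29 to 0.20 and -0.23 to 0.13 for *Aqp1* (0.09 with the block but without the first-set P8 apex array), from -0.07 to 0.15 both ways for *Aqp9*, and from -0.10 to 1.24 for *Aqp11*. The P8 over P0 difference of *Aqp2* ran from -0.13 to 0.04 both ways (0.01 with the block but without the first-set P8 middle array). For *Aqp11* it ran from -0.23 to 0.38 and -0.15 to 0.30 in the base (-0.05 with the block but without the second-set P0 base array), -0.23 to 0.94 in the middle and -0.22 to 1.12 in the apex, and the change from -0.30 to 1.05. Where an array was left out, the other array of its group was assumed to vary like the other groups. The cause was not tested. Scaling moved the median of all genes by at most 0.08.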
